A study of Homo sapiens with 12 samples.

Results

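SLC2A1, HK1, HK2, PFKP, ALDOA, GAPDH, PGK1, ENO1, PKM and LDHA, 10 genes of glucose uptake and glycolysis, were taken by name from the 19618 protein-coding genes of the annotation, and every CUT&RUN region at their promoters and over their bodies with 20 kb on either side was mapped. CUT&RUN uses an antibody to bring a nuclease to its target, so that the DNA around the target is cut out and sequenced. It was carried out on frozen aliquots of RT112, a human bladder carcinoma cell line with intact ARID1A in the study's grouping, and the labels name no treatment. ARID1A belongs to SWI/SNF, a complex that moves nucleosomes with energy from ATP. The 12 samples formed 4 groups of 3 replicates, of which 2 used ARID1A antibodies (Abcam in the first, CST in the second), 1 used an antibody to H3K4me3 and 1 used IgG as the control. All groups share the same cell line, so no perturbation of ARID1A and no other cell type is compared here.

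The study states in general that its results represent biological replicates, but whether the CUT&RUN replicates were separate cultures is not said for these samples. The authors merged the regions of the 3 replicates of a group into 1 list, and lists for both ARID1A antibodies and for H3K4me3 were analysed, while IgG regions were not analysed here. The lists give positions alone, without signal, so the sequencing depth is unknown and no replicate error can be given for any value. On chromosomes 1 to 22 and X there were 37501 Abcam regions with a median width of 1486 bp, 32932 CST regions with a median of 1442 bp and 9765 H3K4me3 regions with a median of 3046 bp. As a check of the cell type, all 12 epithelial and urothelial markers, among them KRT7, KRT19, ELF3 and GATA3, carried H3K4me3 at a promoter. Of the markers of other cell types 0 of 10 did, and of all protein-coding genes 53.1%. Both ARID1A antibodies were at all 12 and at 1 of the 10, COL1A1. They were at 38.2% of all protein-coding genes and at 63.8% of those with H3K4me3. These markers cannot tell RT112 from other epithelial lines.

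Glycolysis breaks glucose down to pyruvate in the cytosol and yields ATP and NADH, and lactate dehydrogenase turns pyruvate into lactate while it restores NAD+. Many tumour cells make lactate from glucose even when oxygen is present, which is known as the Warburg effect. Several of these genes are textbook targets of the hypoxia-inducible factors (HIF), which bind a short core word, ACGTG or GCGTG. H3K4me3 is a histone mark found around the start sites of active genes.

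The upstream sequence of LDHA, PGK1 and HK2 is shown as an example of promoters with several copies of the HIF core word. All of it lies under ARID1A or H3K4me3 regions described below. GAPDH with 3 copies and ENO1 with 2 in the same stretch are not printed. Each run gives the 250 bases that end just before the Ensembl canonical transcription start site (TSS), on the strand of the gene and in build hg38, and capitals mark ACGTG or GCGTG read on either strand (CACGT and CACGC are the same words on the other strand). LDHA lies at chr11:18394313-18394562 on the plus strand, PGK1 at chrX:78103998-78104247 on the plus strand and HK2 at chr2:74833877-74834126 on the plus strand.
LDHA: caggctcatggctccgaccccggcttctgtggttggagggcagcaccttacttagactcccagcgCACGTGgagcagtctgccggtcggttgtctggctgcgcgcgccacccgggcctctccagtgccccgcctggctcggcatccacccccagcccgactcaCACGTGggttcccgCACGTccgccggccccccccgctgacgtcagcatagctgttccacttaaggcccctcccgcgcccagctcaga
PGK1: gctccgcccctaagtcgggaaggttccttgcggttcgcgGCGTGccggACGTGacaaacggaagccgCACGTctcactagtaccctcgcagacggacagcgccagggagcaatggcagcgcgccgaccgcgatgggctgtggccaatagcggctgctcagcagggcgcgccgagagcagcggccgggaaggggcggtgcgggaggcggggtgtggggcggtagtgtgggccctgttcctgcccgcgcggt
HK2: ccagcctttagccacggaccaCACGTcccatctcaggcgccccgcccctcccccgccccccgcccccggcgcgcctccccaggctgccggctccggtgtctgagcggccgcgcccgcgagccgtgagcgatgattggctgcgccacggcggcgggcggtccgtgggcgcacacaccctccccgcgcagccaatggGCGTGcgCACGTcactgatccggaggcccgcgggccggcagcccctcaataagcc

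LDHA holds 2 copies of CACGTG, the E-box bound by MYC family factors, which reads as ACGTG on both strands, and a further ACGTG on the other strand 69 to 73 bases before the TSS. PGK1 holds GCGTG 207 to 211 bases before its TSS and ACGTG at 198 to 202 and, on the other strand, at 179 to 183 bases. SLC2A1, PFKP and PKM have no such word in the 250 bases before the TSS. In the 300 bases that run from 250 before to 50 after the canonical TSS, an HIF word stood in 10 of 10 genes, against 56.6% of all 19618 promoters of that length and 66.5% of the 10079 with H3K4me3 there. Over 1 kb on either side of the TSS the HIF word was in 10 of 10 genes, against 95.6% of all promoters and 98.9% of those with H3K4me3, so the wider window shows no contrast. In the 300 bases ACGTG alone stood in 6 of 10, against 23.3% of all promoters and 27.3% of those with H3K4me3. The 6 were HK2, PFKP, ALDOA, GAPDH, PGK1 and LDHA. These promoters were rich in G and C, with a median of 70.7% against 63.7% over all promoters, and the part of base composition in these word counts was not tested. GGGCGG, the GC box bound by SP factors, stood in 8 of 10 genes, all but GAPDH and LDHA, against 61.6% of all promoters and 78.0% of those with H3K4me3, so this share was near the background of marked promoters. CACGTG was found in LDHA alone (8.74% of all promoters and 10.5% of those with H3K4me3), GGAATG, the TEAD word, in ENO1 alone (11.3% and 9.53%) and TGANTCA, the AP-1 word, in none (5.45% and 3.26%). All words were searched on both strands, and a match describes the reference sequence, not binding.

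ARID1A regions of both antibodies lay within 1 kb of an annotated TSS of 10 of 10 genes, and so did H3K4me3. Over all protein-coding genes, 46.7% had Abcam, 41.9% had CST and 53.1% had H3K4me3 at a promoter defined in this way. Both ARID1A antibodies were found at 38.2% of all genes (95% exact interval 37.6% to 38.9%, counting error only) and at 63.8% of the genes with H3K4me3. All 3 lists together were found at 10 of 10 of the glycolysis genes and at 33.8% of all genes. The 10 genes have more annotated TSSs than most, with a median of 8 against 3 over all genes and 4 over genes with H3K4me3, and so more chances to meet a region. At the canonical TSS alone, both antibodies were found at 9 of 10 genes, all but PFKP, against 35.0% of all genes and 61.0% of the genes with H3K4me3 at that TSS. The part of the number of TSSs in the counts over any TSS was not tested.

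**Figure D1:**
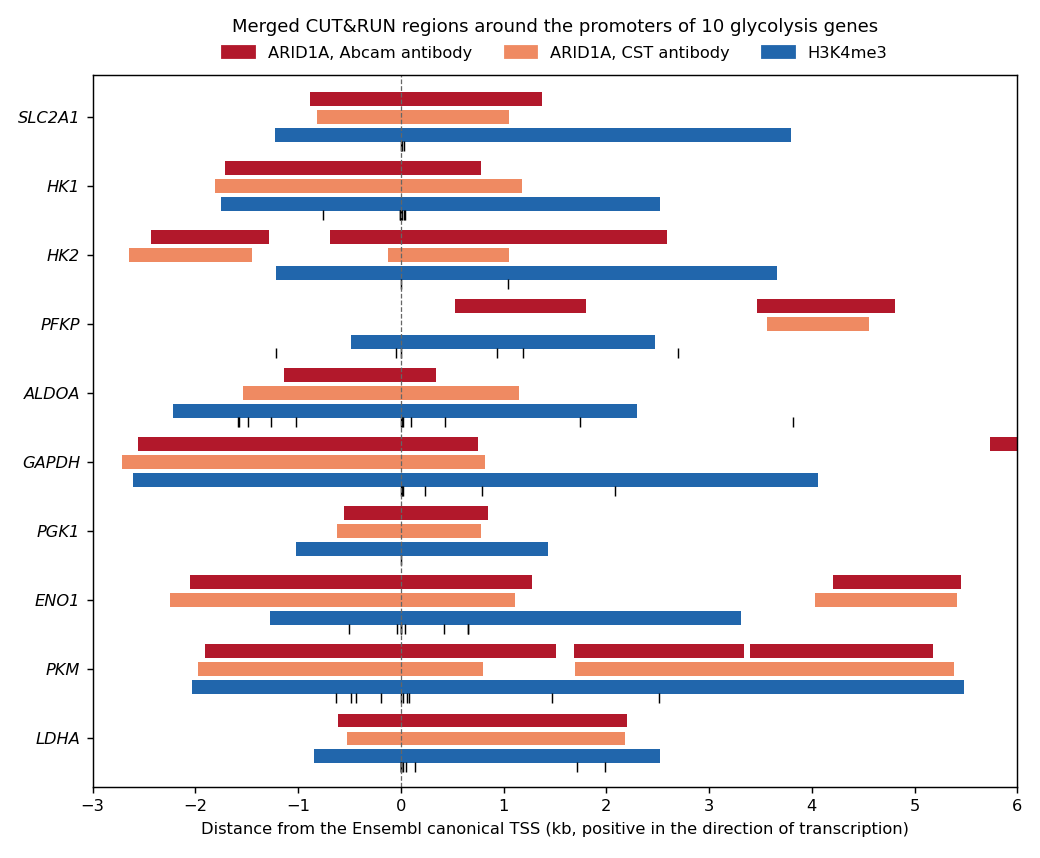
Regions of the 3 merged lists within 3 kb upstream and 6 kb downstream of the Ensembl canonical TSS (x axis, kb) of each of 10 genes (rows), with Abcam above CST above H3K4me3 and black ticks for annotated TSSs. H3K4me3 covers the TSS in 10 of 10 rows, and in PFKP the Abcam region begins 530 bp past the TSS with no CST region above the H3K4me3 region.

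SLC2A1 encodes GLUT1, the transporter that carries glucose across the plasma membrane. The gene lies at chr1:42925353-42958893 on the minus strand. Positions below are in bp from the canonical TSS, negative upstream. At its canonical promoter the Abcam region ran from -886 to 1375 (2262 bp), the CST region from -818 to 1049 (1868 bp) and the H3K4me3 region from -1229 to 3802 (5032 bp). Both ARID1A regions lay wholly inside H3K4me3, which reached over 2 kb further into the gene. An internal TSS at 15630 stood under an Abcam region of 3813 bp and had 2 CST regions within 1 kb, of 2281 bp and 2339 bp, but no H3K4me3. Ranked by the narrower of the overlapping Abcam and CST regions, the widest shared region away from promoters of all 10 genes lay in a SLC2A1 intron, centred 21.3 kb downstream of the TSS, with 3656 bp in Abcam and 3998 bp in CST. Further shared regions were centred 4.87 kb and 8.39 kb upstream in the Abcam list. Of its 8 Abcam regions 5 overlapped a CST region, and all 6 CST regions overlapped an Abcam region.

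HK1 and HK2 encode the hexokinases that trap glucose in the cell as glucose 6-phosphate. HK1 is the form of most tissues, and HK2 is the form raised in many tumours. HK1 lies at chr10:69269984-69401884 on the plus strand. Its canonical promoter carried an Abcam region from -1711 to 784 (2496 bp), a CST region from -1810 to 1174 (2985 bp) and an H3K4me3 region from -1749 to 2520 (4270 bp). HK1 has 17 annotated TSSs, of which 8 at and near the canonical TSS carried all 3 lists. The other 9 lie 3.06 kb to 48.9 kb upstream of it and had no region of any list within 1 kb. All further HK1 regions were intronic and downstream, with Abcam centred at 14.7 kb, 19.0 kb, 42.7 kb and 66.8 kb, and each of them overlapped CST.

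HK2 lies at chr2:74834127-74893359 on the plus strand. Its canonical Abcam region ran from -691 to 2595 (3287 bp), while the CST region ran from -121 to 1056 (1178 bp) and H3K4me3 from -1215 to 3664 (4880 bp). The antibodies thus differed most in extent here: the shared bases made up 35.8% of the combined length, against a median of 83.6% over the 9 canonical promoters with both. A separate shared region, -2432 to -1287 in Abcam and -2648 to -1454 in CST, lay just upstream of the H3K4me3 region. It is 1287 bp from the TSS in the Abcam list and so just outside the promoter window. In the introns, shared regions were centred 10.8 kb, 16.2 kb and 53.7 kb downstream in the Abcam list, with 3302 bp, 3659 bp and 1883 bp. Another shared region lay at the 3′ end of the gene, and all 6 Abcam and all 7 CST regions of HK2 overlapped the other list.

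PFKP encodes the platelet form of phosphofructokinase, the enzyme of the committed step. It lies at chr10:3066333-3137718 on the plus strand. The Abcam region near its canonical TSS, chr10:3068078-3069346, ran from 530 to 1798 (1269 bp) and did not cover the TSS, and no CST region lay within 1 kb. H3K4me3 ran from -486 to 2470 (2957 bp). PFKP was the only one of the 10 genes where the ARID1A region missed the canonical TSS. PFKP entered the count of both antibodies through a shared region further in, at 3463 to 4813 in Abcam (1351 bp) and 3563 to 4553 in CST (991 bp). That CST region was 866 bp from an annotated TSS, just inside the window, and outside H3K4me3. Of 7 Abcam regions of PFKP 4 were shared, with intronic ones centred 23.9 kb, 27.9 kb and 40.2 kb downstream. The outermost Abcam region, 21.9 kb upstream, reached into the locus by 245 bp.

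ALDOA encodes aldolase A, which splits the fructose bisphosphate into triose phosphates. It lies at chr16:30064164-30070457 on the plus strand. The Abcam region ran from -1138 to 341 (1480 bp), the CST region from -1535 to 1152 (2688 bp) and the H3K4me3 region from -2218 to 2299 (4518 bp). H3K4me3 was centred 40 bp from the canonical TSS and covered 61.9% of this short gene. Of 12 annotated TSSs, 10 had all 3 lists within 1 kb. The other regions of the locus lay at promoters of neighbours: a shared ARID1A region of 1601 bp in Abcam and 1476 bp in CST at TBX6 without H3K4me3, and H3K4me3 without ARID1A at PPP4C (3114 bp) and at TLCD3B (2229 bp).

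GAPDH encodes the dehydrogenase that oxidises glyceraldehyde phosphate and makes NADH. It lies at chr12:6534512-6538374 on the plus strand. The Abcam region ran from -2560 to 746 (3307 bp) and the CST region from -2715 to 817 (3533 bp), while H3K4me3 ran from -2609 to 4056 (6666 bp). ARID1A and H3K4me3 thus began close together upstream, and H3K4me3 alone went on over the gene. H3K4me3 covered 100% of the GAPDH body, Abcam 19.5% and CST 21.3%. The start of the long non-coding GAPDH-DT lay inside or within 1 kb of each of these 3 promoter regions. A narrow Abcam region of 803 bp without CST, centred 6.13 kb downstream, was the only other region of the locus.

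PGK1 encodes phosphoglycerate kinase, which makes ATP in a step of glycolysis. It lies on chromosome X and had the narrowest H3K4me3 region of the 10 promoters. The Abcam region ran from -554 to 845 (1400 bp), the CST region from -619 to 781 (1401 bp) and H3K4me3 from -1023 to 1434 (2458 bp). All 3 were below the median width of their list. The annotation gives PGK1 a further TSS at -193509, at the promoter of ATP7A, which makes the gene 219 kb long. At that TSS the Abcam region had 1240 bp and the CST region 642 bp, with no H3K4me3. Upstream of it, COX7B carried Abcam and H3K4me3, and MAGT1 carried H3K4me3 alone.

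ENO1 encodes enolase, which makes phosphoenolpyruvate. It lies at chr1:8861000-8879190 on the minus strand. The Abcam region ran from -2050 to 1276 (3327 bp), the CST region from -2244 to 1107 (3352 bp) and H3K4me3 from -1276 to 3306 (4583 bp). Here ARID1A reached further upstream than H3K4me3, so that 76.7% of the Abcam region and 71.1% of the CST region lay under the mark. ENO1 was the only gene of the 10 whose Abcam region at the canonical TSS was not wholly inside H3K4me3. The start of the antisense transcript ENO1-AS1 lay inside or within 1 kb of each of the 3 regions at the canonical TSS. Shared regions away from promoters were centred 4.83 kb downstream and 18.7 kb upstream in the Abcam list.

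PKM encodes the pyruvate kinase that makes pyruvate and ATP, with a splice form M2 known from tumours. It lies at chr15:72199029-72231819 on the minus strand. Its H3K4me3 region, from -2033 to 5486 (7520 bp), was the widest of the 10. Within it lay 3 Abcam regions of 3422 bp, 1657 bp and 1785 bp and 2 CST regions of 2779 bp and 3697 bp. Together they covered 91.3% of the H3K4me3 region in Abcam and 86.1% in CST. No other gene of the 10 had more than 1 region of either antibody within its H3K4me3 region. An internal TSS at 8659 carried both antibodies, with 1084 bp in Abcam and 1052 bp in CST, and no H3K4me3 within 1 kb. All 6 Abcam and all 5 CST regions of PKM were shared.

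LDHA encodes lactate dehydrogenase A. It lies at chr11:18394560-18408425 on the plus strand. The Abcam region ran from -615 to 2204 (2820 bp), the CST region from -521 to 2183 (2705 bp) and the H3K4me3 region from -847 to 2524 (3372 bp). In LDHA all 3 regions had nearly the same extent, and the bases shared by the antibodies made up 95.9% of their combined length. All 8 annotated TSSs carried all 3 lists. The words printed in capitals for LDHA lie inside the 3 regions. The only other region was shared, centred 10.8 kb upstream in the Abcam list, with 2461 bp in Abcam and 2183 bp in CST.

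**Figure D2:**
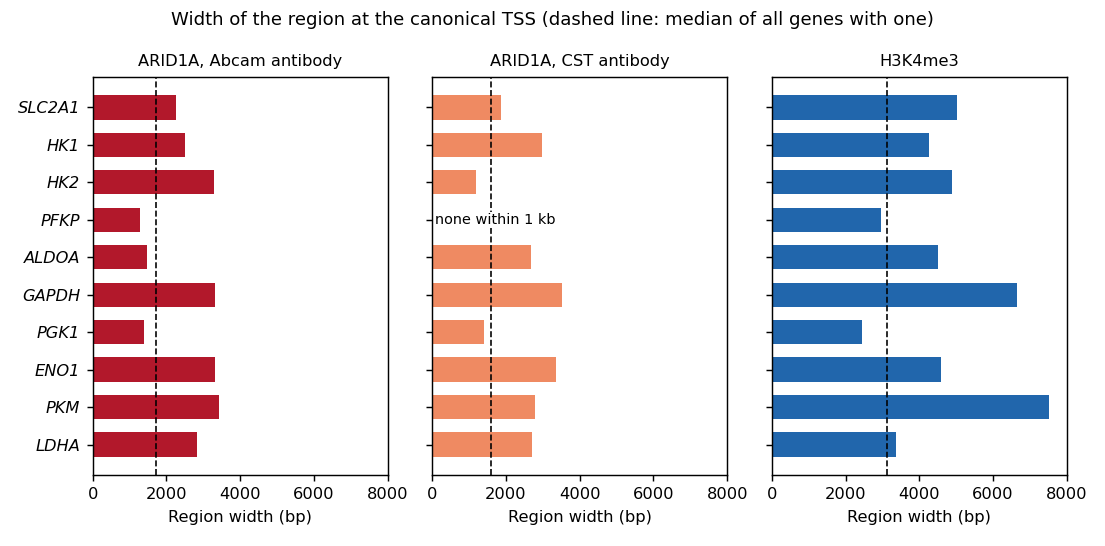
Width in bp (x axis) of the region within 1 kb of the canonical TSS in 10 genes (rows), 1 panel per list, with the median of all genes that have such a region as a dashed line. PKM and GAPDH have the widest H3K4me3 regions, 7520 bp and 6666 bp, and PGK1 lies left of the line in all 3 panels.

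The medians of the widths at these promoters were above those of all genes in each list. Abcam regions at the canonical TSS had a median of 2658 bp (range 1269 to 3422), against 1716 bp over all 8519 genes with one, and 7 of 10 were above that median. CST regions had a median of 2705 bp over 9 genes, against 1586 bp over 7559 genes, and 7 of 9 were above it. H3K4me3 regions had a median of 4550.5 bp (range 2458 to 7520), against 3136 bp over 10079 genes, and 8 of 10 were above it. GAPDH was wider than 92.8% of genes in Abcam and 95.5% in CST, and ENO1 than 93.0% in Abcam and 94.8% in CST. PFKP and PGK1 were below the median in every list that had a region there. Widths come from merged lists and carry no error, so differences between single genes cannot be set against replicates.

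H3K4me3 was centred downstream of the TSS, while the ARID1A centres fell on either side of it. The centre of the H3K4me3 region was downstream of the canonical TSS in 10 of 10 genes, with a median of 915 bp, against 75.9% and 308.5 bp over all genes with such a region. The Abcam region was centred downstream in 5 of 10 genes with a median of -25.5 bp, against 48.8% and -10.5 bp over all genes. The CST region was centred downstream in 4 of 9 genes with a median of -191.5 bp, against 45.1% and -44.5 bp. The Abcam region lay wholly inside H3K4me3 in 9 of 10 genes and the CST region in 6 of 9, against 78.3% and 79.6% over all genes with both.

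Across the 10 loci there were 45 Abcam, 40 CST and 14 H3K4me3 regions. All 14 H3K4me3 regions lay at promoters, 10 at the canonical promoters of the glycolysis genes and 4 at neighbouring genes. Promoters in these counts are those of protein-coding genes. Of the Abcam regions 10 lay at a canonical promoter, 7 at another promoter of the same gene, 2 at a neighbour and 26 away from promoters. Of the CST regions 9 lay at a canonical promoter, 6 at another promoter of the gene, 1 at a neighbour and 24 away from promoters. None of these 26 Abcam and 24 CST regions away from promoters overlapped H3K4me3. The class counts and this overlap were not computed over the whole lists, so they cannot be read as traits of these loci. By midpoint 13 of the 26 Abcam regions were intronic, 1 exonic, 8 upstream and 4 downstream, and of the 24 CST regions 15 were intronic, 2 exonic, 6 upstream and 1 downstream. Among them, SLC2A1 Abcam regions centred 34.8 kb downstream and 4.87 kb upstream lay within 1 kb of a long non-coding start. So did the PFKP Abcam region 21.9 kb upstream and the SLC2A1 CST region 4.7 kb upstream.

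The antibodies mostly marked the same places. Among the 45 Abcam regions 37 met a CST region, which is 82.2% (exact 95% interval 67.9% to 92.0%), against 76.3% over the whole list. All 40 CST regions overlapped an Abcam region (91.2% to 100%), against 87.5% over the whole list. The regions cluster in 10 loci and are not independent, so these intervals are no comparison with the whole list. When at least 50% of both regions had to be shared, the CST value was 77.5% over the loci and 77.5% over the whole list. The overlapping pairs, 41 in number, shared a median of 73.4% of their combined bases, against 72.9% over 29449 pairs, and their midpoints differed by a median of 204 bp, against 168 bp. The 8 Abcam regions without CST lay in SLC2A1 (3), PFKP (3), GAPDH (1) and PGK1 (1). They had a median width of 1212.5 bp, against 1994 bp for the 37 shared ones, and the same order held over the whole list with 1124 bp and 1636 bp.

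**Figure D3:**
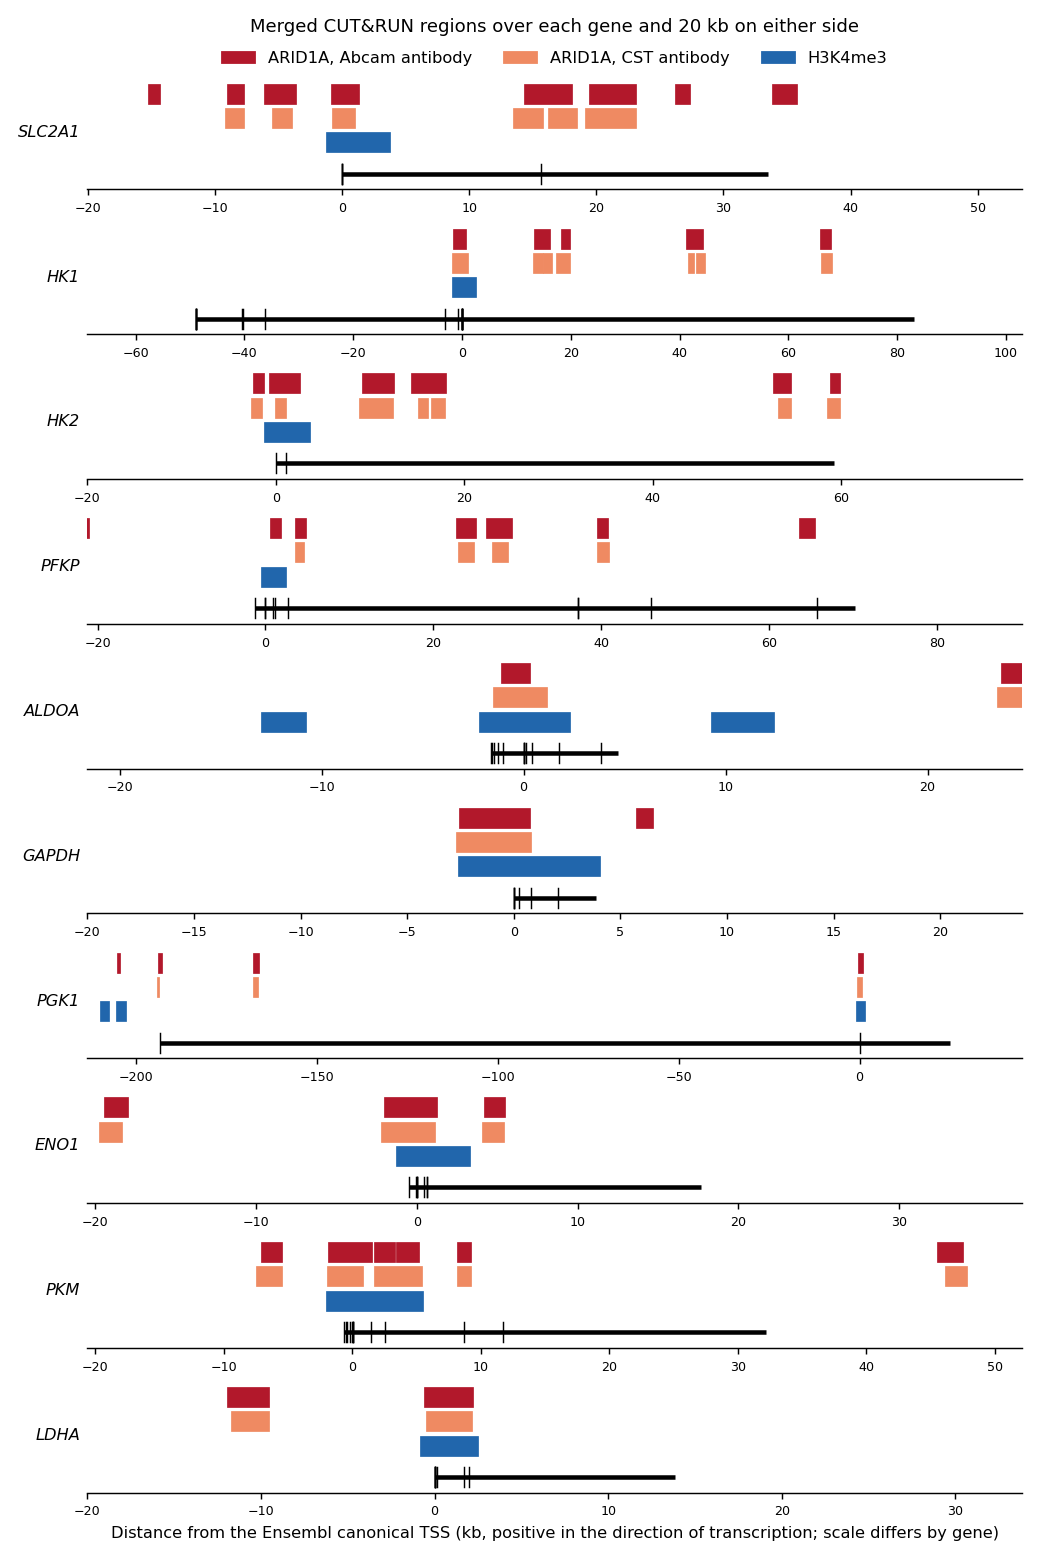
Regions of the 3 lists over each of 10 genes and 20 kb on either side, by distance from the canonical TSS in kb (x axis, with a scale of its own for each gene); the black bar is the gene and its ticks are annotated TSSs. ARID1A regions of both antibodies recur in introns of SLC2A1, HK1, HK2 and PFKP, where H3K4me3 stands at the promoter alone.

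Shared ARID1A regions, meaning Abcam regions that overlap a CST region, were denser over 9 of the 10 loci than the median of all genes. The median was 4.02 per 100 kb of gene and flanks, against 1.44 over all 19618 genes. PKM had 8.24 (6 regions), SLC2A1 6.80 (5 regions), HK2 6.05 (6 regions) and ENO1 5.16 (3 regions), and 97.4%, 95.2%, 93.3% and 90.6% of all genes lay below them. HK1, with 5 regions in 171.9 kb, had 2.91. GAPDH had 2.28, from its promoter region alone. PGK1 had 1.16, from 3 regions in 258.6 kb. Taken from its canonical TSS, an extent chosen after the data were seen, PGK1 had 1 shared region in 65.0 kb, or 1.54. That value lies above the median of all genes, so the place of PGK1 below it depends on the extent used. The short loci hold few regions, so that neighbours in this order differ by the presence of 1 or 2 regions. The density includes regions at the gene's own promoters, and its median over genes with H3K4me3 was not computed. Away from its own promoters HK2 had 5 shared regions, HK1 4, SLC2A1 and PFKP 3 each, and ENO1 and PKM 2 each. ALDOA, PGK1 and LDHA had 1 each and GAPDH 0. In that order, 94.8%, 91.1%, 84.1%, 70.2%, 45.9% and 0% of all genes had fewer. These counts make no allowance for the length of the locus, which was 171.9 kb for HK1 and 111.4 kb for PFKP. By density, 74.8% of all genes lay below HK1 and 80.2% below PFKP.

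**Figure D4:**
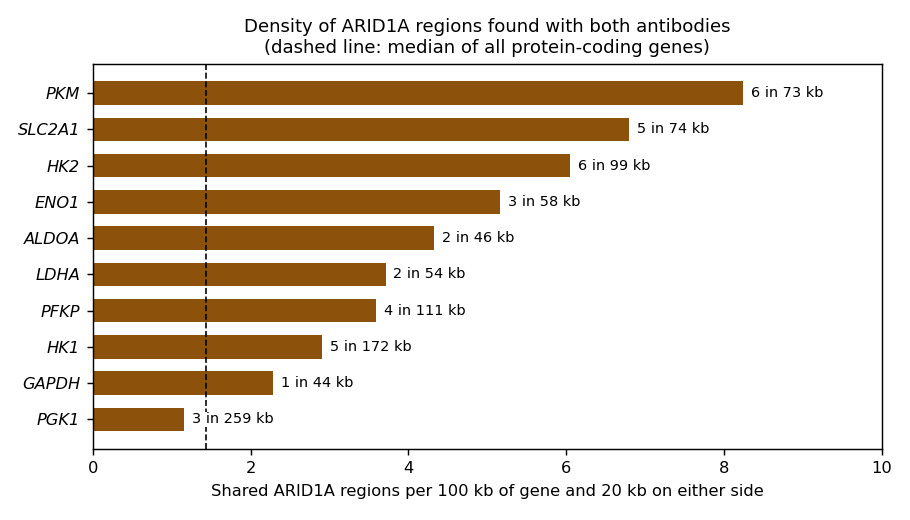
Shared ARID1A regions per 100 kb of gene and 20 kb on either side (x axis) for 10 genes (rows), with the number of regions and the length of the locus beside each bar and the median of all protein-coding genes, 1.44, as a dashed line. PKM has the highest value, 8.24, and PGK1 alone lies below the line at 1.16.

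The same words were searched in the shared regions away from promoters. Of 21 such regions, 10 held the AP-1 word TGANTCA in the central 400 bases of the overlap of both antibodies, against 45.2% of 21380 such regions genome-wide, so this share was near the background. AP-1 factors are partners of SWI/SNF at enhancers in other cells. The word GGAATG was in 6 of 21, against 28.0%, and an HIF word in 6 of 21, against 34.6%. ACGTG was in 1 of 21, against 18.3%, in HK2. The GC box stood in 4 of 21, against 9.26%, and CACGTG in 0, against 4.51%. The following 100-base runs from 4 of the widest shared regions are shown because they hold the AP-1 word, in capitals, within the central 400 bases of the overlap. The word was 163 bp from the midpoint in SLC2A1, 28 bp in LDHA and 57 bp and 29 bp in PFKP. They are on the plus strand of hg38, at chr1:42937373-42937472 in a SLC2A1 intron 21.3 kb downstream of the TSS, at chr11:18383870-18383969 10.6 kb upstream of LDHA, and at chr10:3091468-3091567 and chr10:3095398-3095497 in PFKP introns 23.9 kb and 27.9 kb downstream.
SLC2A1: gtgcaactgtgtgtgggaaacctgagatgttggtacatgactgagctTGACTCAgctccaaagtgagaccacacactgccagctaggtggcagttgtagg
LDHA: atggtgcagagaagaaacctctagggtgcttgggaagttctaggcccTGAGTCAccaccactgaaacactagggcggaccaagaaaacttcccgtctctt
PFKP 23.9 kb: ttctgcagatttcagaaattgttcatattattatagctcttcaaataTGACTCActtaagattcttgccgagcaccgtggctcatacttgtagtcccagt
PFKP 27.9 kb: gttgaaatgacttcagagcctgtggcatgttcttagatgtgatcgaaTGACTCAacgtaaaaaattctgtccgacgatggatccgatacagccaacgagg

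At the level of single start sites, the 10 genes have 81 annotated TSSs. Within 1 kb, 64 had Abcam, 60 had CST, 63 had H3K4me3, 56 had all 3 and 14 had none. Many of these TSSs lie close together, such as those of HK1 from -13 to 42, and meet the same region. They are therefore not separate observations, and the shares over all annotated TSSs were not computed. The TSSs with both antibodies and no H3K4me3 were the internal ones of SLC2A1 and PKM and the PGK1 one at ATP7A. The 9 bare upstream TSSs of HK1 and 3 bare ones of PFKP made up most of the 14 with none. ALDOA and PKM each had 1 more, the most downstream of the gene.

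Other genes of glucose metabolism were read in the same way. Of 11 further core glycolytic enzymes, 8 had H3K4me3 at a promoter and 2 had both ARID1A antibodies, namely BPGM (1728 bp in Abcam, 1802 bp in CST) and PFKL (1401 bp and 1365 bp). TPI1, which interconverts the triose phosphates, had an H3K4me3 region of 3705 bp and no ARID1A region, and ALDOC and HKDC1 had none of the 3. Of 13 tissue-restricted isoforms, such as PGK2 of testis, 2 had both antibodies (ENO3 and SLC2A4) and 1, ENO3, had H3K4me3. Of 13 further hexose transporters 3 had both antibodies (SLC2A6, SLC2A8 and SLC2A12) and 5 had H3K4me3. These counts stood beside 38.2% and 53.1% over all genes, and the difference between lists was not tested.

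Further lists cover the steps around glycolysis. Of 13 regulators of glycolytic flux 6 had both antibodies, with the widest, by the narrower of both antibodies, at PFKFB2, a kinase and phosphatase that sets the level of a phosphofructokinase activator (4150 bp in Abcam, 4329 bp in CST, 4744 bp in H3K4me3), and others at PDP1, PDK1 and TXNIP. Of 12 genes of lactate and pyruvate transport 6 had both, among them SLC16A3, the lactate exporter MCT4, MPC2, a subunit of the mitochondrial pyruvate carrier, and PDHX of the pyruvate dehydrogenase complex. Of 14 genes of the HIF pathway and hypoxia response 11 had both and 12 had H3K4me3. ADM, which encodes a hypoxia-induced peptide hormone, had 8175 bp in Abcam, 3012 bp in CST and 6959 bp in H3K4me3. BNIP3, CA9 and HIF1AN had no ARID1A. The pentose phosphate list had 4 of 8 with both, and the gluconeogenesis list 3 of 8. Over the 8 lists together, 37 of 92 genes (40.2%) had both antibodies and 51 (55.4%) had H3K4me3, near the values over all genes.

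**Figure D5:**
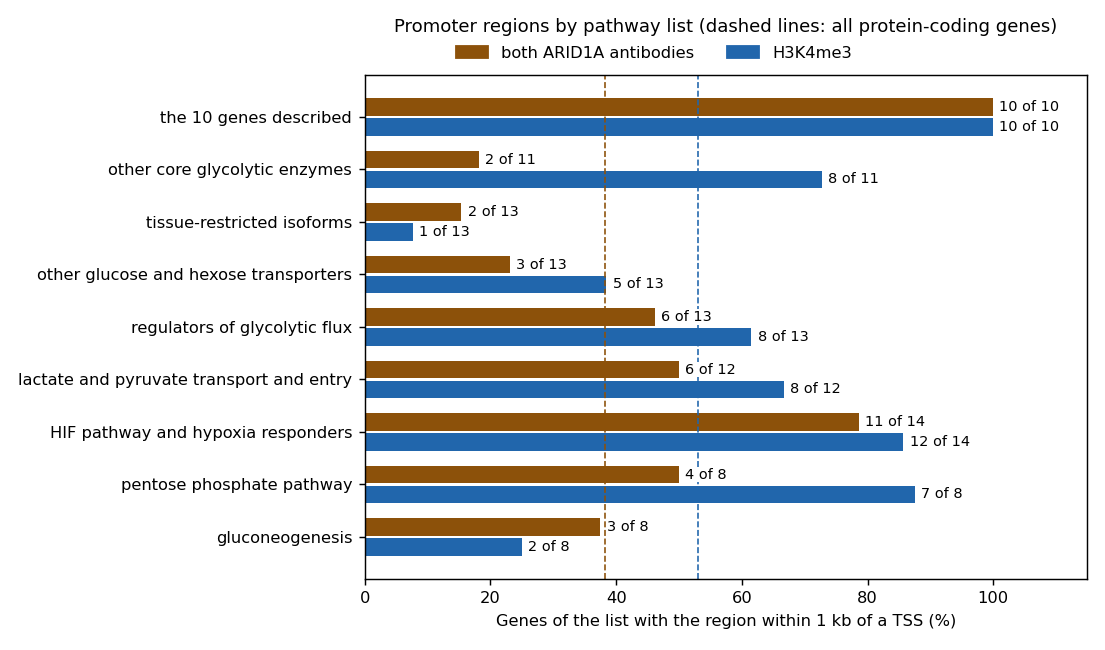
Share of genes (x axis, %) with both ARID1A antibodies (brown) and with H3K4me3 (blue) within 1 kb of a TSS, for the 10 genes and 8 other pathway lists (rows), with counts beside the bars and the shares over all protein-coding genes, 38.2% and 53.1%, as dashed lines. The 10 genes are at 10 of 10 for both, and the other core glycolytic enzymes at 2 of 11 and 8 of 11.

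Processed pseudogenes are copies made by reverse transcription that lack the promoter. The annotation names 82 after these genes, of which GAPDH has 62, LDHA 6, PKM 5, ENO1 4, ALDOA and PGK1 2 each and HK2 1, while SLC2A1, HK1 and PFKP have 0. None of the 82 overlapped a region of any list, against 3.05% of 10516 processed pseudogenes. The authors removed reads that did not map uniquely, so near-identical copies can lack regions for that reason too, which was not tested.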

How the data were processed

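CUT&RUN was carried out with the CUTANA kit on frozen RT112 cells, with E. coli spike-in DNA. The authors trimmed reads with cutadapt, aligned them to hg38, removed duplicates with Picard and all reads without a unique position, scaled by spike-in, called peaks with SEACR and merged replicate peaks in bedtools. bcl2fastq and deepTools are also in the submitters' processing notes, without versions. SEACR ran in relaxed mode per the methods but in stringent mode per the list names, so the mode is uncertain, and the methods add that a very small top fraction of peaks was kept. A merged region may stem from 1 replicate, and a missing one may lie just below the threshold.

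Each deposited list holds a chromosome, a start and an end, and no count, score or depth. Positions are printed counting from 1. Regions on other sequences (152 Abcam, 159 CST and 14 H3K4me3) were left out. The annotation was GENCODE 44 with each protein-coding symbol used once, which dropped 8 duplicates. Promoters reached 1 kb to both sides of every TSS of a protein-coding transcript, and the canonical TSS is that of the Ensembl canonical transcript. Regions overlapped from 1 bp. Intervals are Clopper-Pearson at 95% and cover counting error only. No test was run, since no list has replicates. Sequences were read from hg38, where 23 of 23 RefSeq promoters of these genes were identical. Python 3.11.15 with scipy 1.17.1, pysam 0.24.0 and matplotlib 3.10.9 was used, and the promoter count was tested on simulated regions.

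The members and the lists were chosen with earlier results of these data known. All 10 genes are named. From each other list the rule names up to 4 genes with the widest promoter regions of both antibodies (ranked by the narrower one) and, alphabetically, up to 4 that lack ARID1A. It also names neighbours whose promoter lies in a locus and the 10 widest shared regions away from promoters. Markers and PGK2 were named as examples, and some items are not reported here. Alternatives were other windows, flanks, width minima and overlap rules.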

Additional observations from a re-analysis of the deposited data

How the results depend on the processing

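Of 51 alternative values for 10 results, 45 moved by less than 1.5 times, or for shares stayed inside the exact interval, and 6 did not. With regions narrower than their list's median left out, 6 of 10 genes kept both ARID1A antibodies at the promoter (21.4% of all genes), and 6 of 10 kept them with H3K4me3 (14.2%). HK2, PFKP, ALDOA and PGK1 dropped out. The same demand left 29 Abcam, 26 CST and 9 H3K4me3 regions over the 10 loci. These were 64.4%, 65% and 64.3% of the regions there. By its definition the demand keeps about 50% of each whole list. With an overlap of at least 50% of both regions, 77.5% of CST regions over the loci overlapped an Abcam region, the same as over the whole list. PFKP also lost both antibodies with a window of 500 bp, with the canonical TSS alone and with the region midpoint inside the window. The midpoint rule also took H3K4me3 from SLC2A1, so 8 of 10 genes kept all 3 lists (29.8% of all genes). Without the narrower regions PFKP and PGK1 lost H3K4me3, which stayed at 8 of 10 genes (29.0% of all genes). With 1 kb on either side of the TSS, an HIF word was in 10 of 10 genes but also in 95.6% of all promoters. A PGK1 locus that starts at the canonical TSS was added after seeing the data. It took PGK1 from 1.16 to 1.54 shared regions per 100 kb. PGK1 thus passed from below to above the median of all genes, 1.44. No paired analysis was possible because the lists are merged over replicates, and for the same reason no replicate could be left out. Depth is unknown, so a region that is absent cannot be told from one not detected.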
